A study of Mus musculus with 8 samples.

Results

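The contractile genes of the mammary myoepithelial cell were followed in sorted tumor cells: Acta2, Actg2, Cnn1, Myh11, Myl9, Mylk, Oxtr, Tagln, Tpm1 and Tpm2. These 10 genes, of 53697 in the table, were taken by name, and no measured value entered the rule. They and the gene lists used below were however chosen with earlier results of these data known. Counts of members called are therefore descriptions, not those of an unselected set. RNA was sequenced from mammary tumor cells of 4 MMTV-PyMT mice. In these mice the mouse mammary tumor virus promoter drives the polyoma middle T oncogene in the mammary epithelium. Cells with the signal of a reporter of the Notch ligand Dll1 were compared with cells without it. All 4 mice were of the C57BL/6 background, and their ages were not given in the sources used here. Mice 1 and 2 were PyMT-Dll1GFP mice, which carry a GFP-IRES-Cre-ERT2 knock-in at Dll1. Mice 3 and 4 were PyMT-Dll1mCh mice, which carry a BAC-based mCherry reporter of Dll1. Tumors were digested with collagenase and hyaluronidase, and cells with CD45, CD31 or Ter119 were removed. None of these antibodies is directed at fibroblasts, pericytes or vascular smooth muscle. The remaining lineage-negative cells were divided by reporter signal into Dll1+ and Dll1- cells, and each mouse gave 1 library of each, which makes 4 groups of 2 libraries.

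Myoepithelial cells form the contractile basal layer of the mammary epithelium and eject milk when oxytocin reaches them. The oxytocin receptor, encoded by Oxtr, acts through Gq and phospholipase C to raise calcium, and calcium-bound calmodulin activates myosin light chain kinase (Mylk), which phosphorylates the regulatory light chain (Myl9) of smooth muscle myosin (heavy chain Myh11). That myosin pulls on filaments of smooth muscle actin (Acta2, Actg2) to which tropomyosins (Tpm1, Tpm2), calponin (Cnn1) and transgelin (Tagln) bind. Vascular smooth muscle cells, pericytes and myofibroblasts use many of the same genes, so none of the 10 marks the myoepithelial cell alone.

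Serum response factor and its MRTF coactivators control many smooth muscle genes through the CArG box, a pair of C and a pair of G around a core of 6 A or T bases. The RefSeq promoter windows of GRCm38.p6, 250 bases before to 50 bases after a transcript start, were searched for it because most of the members differed together between the reporter lines. A window was listed for 7 of the 10 members, all but Actg2, Myh11 and Tagln. The box reads the same on both strands, so 1 search covers both, and boxes were counted even where they overlap. Each match in the members is shown with 10 flanking bases on either side in lower case and the box in capitals.
Myl9, exact box: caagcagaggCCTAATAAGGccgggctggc
Myl9, box with 1 G or C in the core: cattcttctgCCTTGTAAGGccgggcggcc
Acta2, upstream box with 1 G or C in the core: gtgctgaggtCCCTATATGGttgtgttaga
Acta2, downstream box with 1 G or C in the core: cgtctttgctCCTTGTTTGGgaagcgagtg
The Myl9 stretches lie on the plus strand at chr2:156775293-156775322 and chr2:156775355-156775384, their boxes begin 161 and 99 bases before the start, and both are upstream of the annotated gene. The Acta2 stretches lie on the minus strand at chr19:34255438-34255467 and chr19:34255388-34255417, their boxes begin 84 and 34 bases before the start used, and both fall in the first exon of the longer GENCODE transcript. An exact box was found in 1 of the 7 member windows and in 535 of 32851 windows of all genes (1.63%). With 1 G or C allowed in the core, 2 of 7 member windows held a box, against 9.98% of all windows. A match describes letters in a window and is not evidence of binding.

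Reads were deposited as estimated counts per gene, with 27301396 to 123907626 counts per library. Levels are CPM, counts relative to the total of the library after TMM scaling, and 3 counts, taken as the floor of detection, correspond to 0.0242 to 0.110 CPM. Floors cover counting error only. The filter on low counts left 18322 genes, all 10 members among them. A gene is called where edgeR's quasi-likelihood test gave a Benjamini-Hochberg adjusted p under 0.05 over those 18322 genes. The 4 PyMT-Dll1mCh libraries stood apart from the 4 PyMT-Dll1GFP libraries along the first principal component, which held 58.3% of the variance. Dll1 was 2.90 higher on the log2 scale in Dll1+ cells (SE 0.24, adjusted p = 0.00651), Epcam (an epithelial adhesion protein) lay between 899 and 1240 CPM, and Ptprc, which encodes CD45, between 2.88 and 12.7 CPM. Pecam1, which encodes CD31, was at 13.7 to 14.3 CPM in PyMT-Dll1GFP libraries and in PyMT-Dll1mCh mice at 42.6 and 98.2 CPM in Dll1- and at 24.9 and 24.1 CPM in Dll1+ cells. Of these 4 genes, 3 were called higher in PyMT-Dll1mCh mice in Dll1- cells. They were Dll1 itself, Ptprc (1.83 on the log2 scale, adjusted p = 0.00293) and Pecam1 (2.34, adjusted p = 0.00442). Dll1- is thus a sort status by reporter signal, and the level of Dll1 in Dll1- cells differed between the lines. In bulk samples, fewer cells of a type and less RNA per cell cannot be told apart.

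The members spanned a wide range of levels. Compared per length, as CPM per kilobase of annotated exon, Tpm1 led in Dll1- cells of PyMT-Dll1GFP mice with 52.4 ± 1.32 (SD, n = 2). Myl9, at 6.75 ± 0.175, Acta2, at 6.40 ± 1.21, and Tpm2, at 5.77 ± 1.70, followed and did not differ beyond their spread. Tagln was at 4.38 ± 0.123, Oxtr at 2.84 ± 0.255 and Mylk at 1.21 ± 0.410. Actg2, Myh11 and Cnn1, the genes most restricted to differentiated smooth muscle, closed the order between 0.307 and 0.641. In Dll1- cells of PyMT-Dll1mCh mice Acta2 led with 92.0 ± 7.35 CPM per kilobase. Tpm1, at 60.7 ± 21.8, Tagln, at 53.5 ± 16.0, Myl9, at 52.3 ± 5.17, and Tpm2, at 34.7 ± 28.0, came next and overlapped in their spread. Oxtr, at 3.18 ± 1.89, was now the lowest, after Cnn1 at 3.995 ± 2.47.

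**Figure D1:**
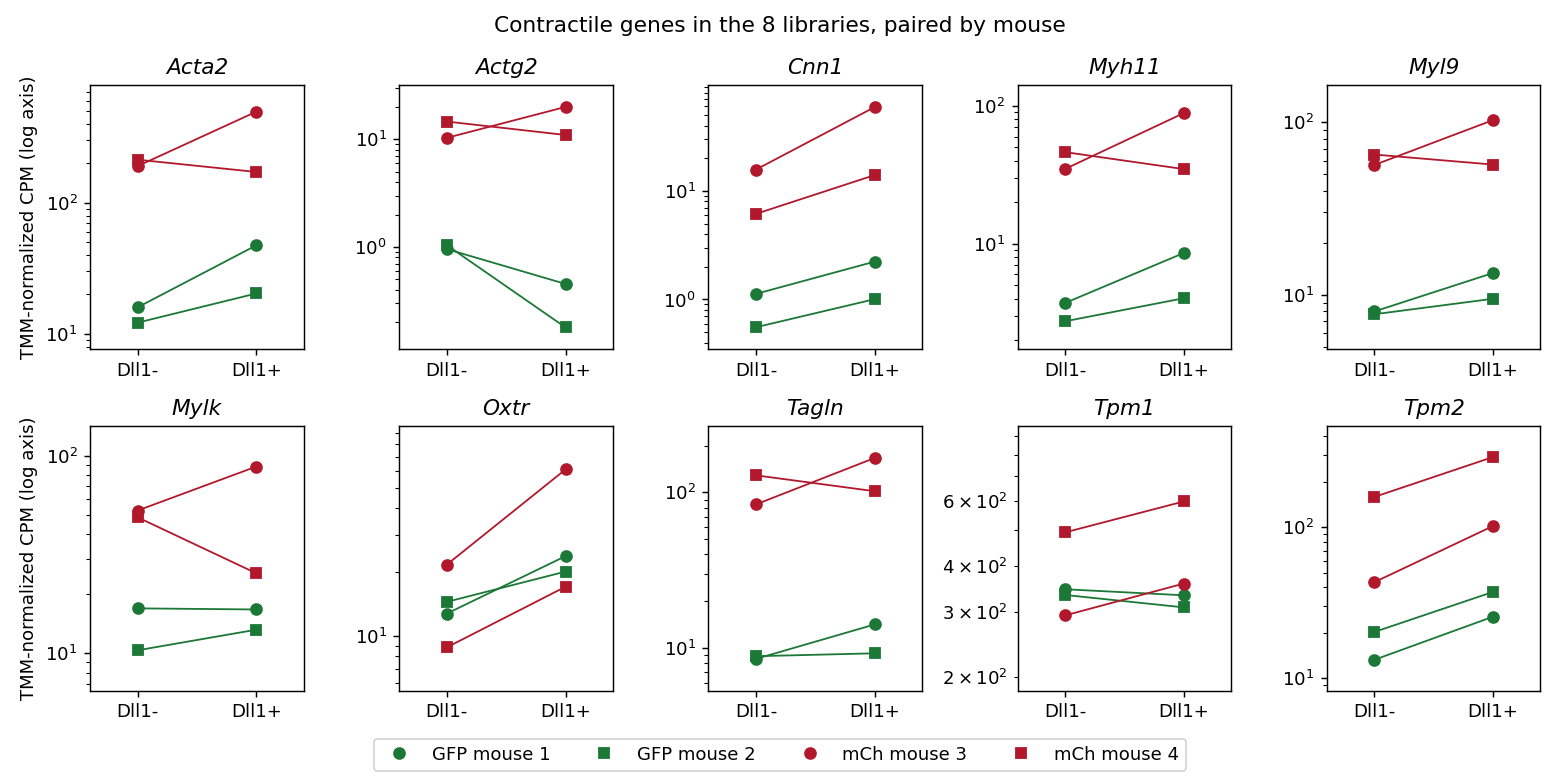
Level of each contractile gene in the 8 libraries, as TMM-normalized CPM on a log axis with its own range per gene, for Dll1- and Dll1+ cells; each line joins the 2 libraries of 1 mouse (green, PyMT-Dll1GFP; red, PyMT-Dll1mCh). Cnn1, Oxtr and Tpm2 were higher in the Dll1+ library of all 4 mice, and the red points lie above all green points for 8 genes, all but Oxtr and Tpm1.

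Dll1+ cells were compared with Dll1- cells of the same mouse to ask how the contractile genes go with Dll1. Oxtr, Cnn1 and Tpm2 rose in Dll1+ cells over the 4 mice, by 1.95-fold, 2.53-fold and 1.98-fold. The other 7 members were not called, among them the actins, the myosin chains and the kinase. The count is 3 of 10, all higher, where 14.0% of all tested genes were called with 6.98% higher and 7.04% lower. The median log2 fold change of the 10 members was 0.54, against 0.00 for all tested genes. The same 3 members were higher in the Dll1+ library of all 4 mice, as were 21.4% of all tested genes.

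Oxtr, the receptor through which oxytocin starts contraction, was at 12.7 CPM in Dll1- and 23.7 CPM in Dll1+ cells of mouse 1, and at 14.5 and 20.1 CPM in mouse 2. In the PyMT-Dll1mCh mice it was at 21.7 and 60.9 CPM in mouse 3 and at 8.82 and 17.0 CPM in mouse 4. Each Dll1+ library was thus above its partner, although the Dll1+ library of mouse 4 lay below the Dll1- library of mouse 3. Over 4 mice the fit gave 0.96 on the log2 scale (SE 0.17, adjusted p = 0.0217). It was no longer called without mouse 1 (adjusted p = 0.0858), mouse 3 (0.0627) or mouse 4 (0.0503), with a log2 fold change of 0.77 to 1.13 whichever mouse was left out.

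Mylk, the kinase that the receptor's calcium signal switches on, had another pattern than Oxtr. Its Dll1- and Dll1+ libraries held 16.9 and 16.7 CPM in mouse 1, 10.4 and 13.2 CPM in mouse 2, 52.8 and 88.0 CPM in mouse 3, and 48.8 and 25.4 CPM in mouse 4. It was higher in Dll1+ cells in 2 mice and lower in the other two, and the fit gave 0.03 on the log2 scale (SE 0.29, adjusted p = 0.944). In PyMT-Dll1mCh mice its log2 fold change was -0.96 without mouse 3 and 0.71 without mouse 4, each resting on the 1 mouse left in that line. Mylk overlaps 3 antisense genes on the opposite strand. The library kit was stranded, but the strand setting of the quantification is not given in the sources used here.

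Of the myosin chains, Myh11 was at 3.72 and 8.58 CPM in Dll1- and Dll1+ cells of mouse 1, 2.74 and 4.03 CPM in mouse 2, 34.9 and 88.9 CPM in mouse 3, and 46.3 and 34.8 CPM in mouse 4. Myl9 was at 7.98 and 13.4 CPM, 7.69 and 9.46 CPM, 56.6 and 103 CPM, and 65.1 and 56.9 CPM in the same order. Both chains were higher in Dll1+ cells in mice 1 to 3 and lower in mouse 4. The log2 fold changes were 0.66 (SE 0.34, adjusted p = 0.242) for Myh11 and 0.42 (SE 0.19, adjusted p = 0.192) for Myl9.

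Acta2, the smooth muscle alpha-actin that stains myoepithelial cells in tissue sections, went from 15.9 to 47.4 CPM in mouse 1, from 12.2 to 20.3 CPM in mouse 2 and from 191 to 496 CPM in mouse 3, and from 213 down to 172 CPM in mouse 4. It was 2.97-fold higher in Dll1+ cells in mouse 1 and lower in mouse 4, with a log2 difference of -0.31, and the log2 fold change of 0.84 (SE 0.34) was not called (adjusted p = 0.169). Without mouse 4, Acta2 (1.25, adjusted p = 0.0224), Myh11 (1.09, adjusted p = 0.0216) and Myl9 (0.65, adjusted p = 0.0323) were called. Mouse 4 therefore decides these 3 calls.

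Actg2, the smooth muscle gamma-actin, had 28 and 13 counts in Dll1- and Dll1+ cells of mouse 1 and 30 and 8 counts in mouse 2, which is 0.955 and 0.453 CPM and 1.04 and 0.179 CPM. In the PyMT-Dll1mCh mice it was at 10.3 and 19.96 CPM in mouse 3 and at 14.6 and 10.96 CPM in mouse 4. It was the 1 member lower in Dll1+ cells in 3 of 4 mice, and the fit gave -0.42 on the log2 scale (SE 0.54, adjusted p = 0.634). Reads of the near-identical actins could be divided among their genes by the quantification, so that low Actg2 values are uncertain.

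Among the proteins bound to the actin filament, Tpm2, a muscle beta-tropomyosin, changed most evenly. Its Dll1- and Dll1+ libraries held 13.3 and 25.6 CPM in mouse 1, 20.3 and 37.3 CPM in mouse 2, 43.3 and 102 CPM in mouse 3, and 159 and 292 CPM in mouse 4. The level differed widely between mice, but the log2 difference within a mouse lay between 0.88 and 1.23. The fit gave 0.99 on the log2 scale (SE 0.08, adjusted p = 0.00534), and Tpm2 was called with each mouse left out in turn (adjusted p = 0.00677 to 0.0396).

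Cnn1, calponin, an inhibitor of the actomyosin ATPase found in differentiated smooth muscle, was low in PyMT-Dll1GFP mice, with 1.13 and 2.23 CPM in mouse 1 and 0.555 and 1.01 CPM in mouse 2. In PyMT-Dll1mCh mice it was at 15.7 and 59.2 CPM in mouse 3 and 6.14 and 14.0 CPM in mouse 4. All 4 Dll1+ libraries were above their partners, and the fit gave 1.34 on the log2 scale (SE 0.20, adjusted p = 0.0139). The call was lost without mouse 1 (adjusted p = 0.0530) or mouse 3 (adjusted p = 0.0698), with log2 fold changes of 1.44 and 1.03.

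Tagln, the actin-bundling protein transgelin, followed the myosin chains: it was at 8.53 and 14.2 CPM in mouse 1, 8.87 and 9.26 CPM in mouse 2, 83.8 and 167 CPM in mouse 3, and 129 and 102 CPM in mouse 4. The fit gave 0.36 on the log2 scale (SE 0.25, adjusted p = 0.369). Tagln overlaps Pcsk7 and Gm48529 on the opposite strand. Tpm1, whose 21 annotated transcripts include muscle and nonmuscle tropomyosins summed here, ranged only from 294 to 598 CPM over the 8 libraries. The fit gave 0.10 on the log2 scale (SE 0.10, adjusted p = 0.504).

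**Figure D2:**
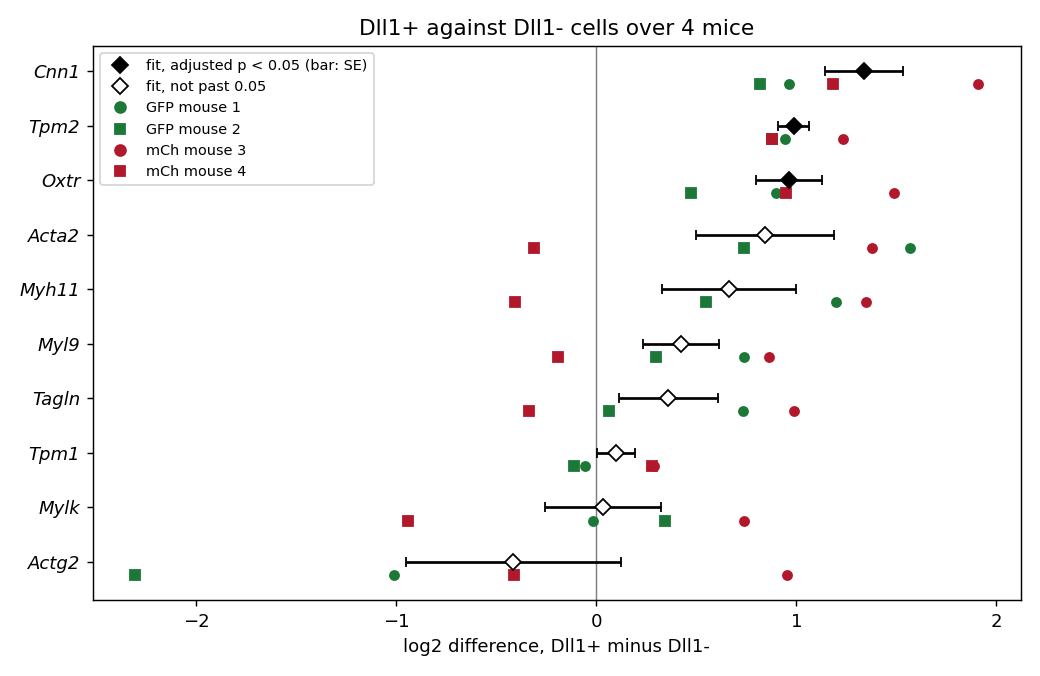
Log2 difference between Dll1+ and Dll1- cells for each contractile gene, Dll1+ minus Dll1-: colored points are single mice, diamonds are the fit over 4 mice with its SE, filled where the adjusted p is under 0.05. The diamonds of Cnn1, Tpm2 and Oxtr are filled, at 1.34, 0.99 and 0.96, and the points of mouse 4 lie left of 0 for Acta2, Myh11, Myl9, Tagln, Mylk and Actg2.

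The direction of the 10 members was mixed in 3 of the 4 mice. In mouse 1, 7 of 10 were higher in Dll1+ cells, with a median log2 difference of 0.82, and in mouse 2, 8 of 10, with a median of 0.41. In mouse 3 all 10 were higher, with a median of 1.11. In mouse 4 only Cnn1, Oxtr, Tpm1 and Tpm2 were higher, and the median was -0.25. Of all tested genes, 47.6%, 50.9%, 50.2% and 55.0% were higher in Dll1+ cells in mice 1 to 4.

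Fitted per reporter, 1 member was called in PyMT-Dll1GFP mice and 3 in PyMT-Dll1mCh mice, where 9.13% and 11.8% of all tested genes were called (4.29% and 5.51% higher, 4.84% and 6.25% lower). The member called in PyMT-Dll1GFP mice was Tpm2, at 0.91 on the log2 scale (SE 0.11, adjusted p = 0.00754). In PyMT-Dll1mCh mice Tpm2 (1.06, SE 0.10, adjusted p = 0.00757), Cnn1 (1.57, SE 0.19, adjusted p = 0.0109) and Oxtr (1.24, SE 0.17, adjusted p = 0.0153) were called. Without mouse 1 or mouse 2, Tpm2 was no longer called in PyMT-Dll1GFP mice, but hardly any of all tested genes were called either. Each of these fits had 1 PyMT-Dll1GFP mouse left, so the loss says little about Tpm2 itself. Without mouse 3, Cnn1 and Oxtr were not called in PyMT-Dll1mCh mice (adjusted p = 0.0613 and 0.0575). The comparison over 4 mice and those per reporter share their libraries and are not independent of each other.

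The test of the difference between the reporters in edgeR called 0 of the 10 members, and 13 of 18322 genes (0.0710%). DESeq2 also called 0 members, and 540 genes (2.95%). At an unadjusted p under 0.05 in edgeR there were 2 members, Actg2 and Tpm1, and 2420 of the 18322 genes. The fold change of Actg2 in PyMT-Dll1GFP mice minus that in PyMT-Dll1mCh mice was -2.04 (SE 0.76), and for Tpm1 it was -0.37 (SE 0.12), both on the log2 scale. A difference between reporters was therefore not detected for Oxtr or Cnn1, whose differences were -0.55 (SE 0.24, adjusted p = 0.410) and -0.64 (SE 0.34, adjusted p = 0.497).

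The reporter lines themselves were compared next, 2 mice against 2, since each line has mice of its own. The contractile genes were far higher in PyMT-Dll1mCh mice, in Dll1- and in Dll1+ cells, although Dll1 itself also differed between the lines in Dll1- cells. Of the 10 members, 8 were called higher in Dll1- cells and 8 in Dll1+ cells, where 18.7% and 15.2% of all tested genes were called higher (36.6% and 30.6% in either direction, 17.9% and 15.4% lower). The 8 were the same in both: Acta2, Actg2, Cnn1, Myh11, Myl9, Mylk, Tagln and Tpm2. For these 8, all 4 PyMT-Dll1mCh libraries lay above all 4 PyMT-Dll1GFP libraries, as they did for 21.5% of all tested genes. Within Dll1- cells the lines did not overlap for 8 members, with PyMT-Dll1mCh higher, as for 35.7% of all tested genes, and within Dll1+ cells for 9, Tpm1 in addition, as for 36.8%. The median log2 fold change of the 10 members was 3.28 in Dll1- and 3.06 in Dll1+ cells, against 0.01 and 0.07 for all tested genes.

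Acta2 was at 14.0 ± 2.66 CPM (SD, n = 2) in Dll1- cells of PyMT-Dll1GFP mice and at 202 ± 16.1 CPM in those of PyMT-Dll1mCh mice, a 14.4-fold difference (log2 fold change 3.85, SE 0.61, adjusted p = 0.00500). In Dll1+ cells it was at 33.9 ± 19.1 and 334 ± 229 CPM, 9.90-fold higher (log2 fold change 3.31, SE 0.59, adjusted p = 0.0103). The lowest PyMT-Dll1mCh library, at 172 CPM, was well above the highest PyMT-Dll1GFP library, at 47.4 CPM.

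Tagln had the lowest adjusted p of the members in Dll1- cells, with 8.70 ± 0.244 CPM in PyMT-Dll1GFP and 106 ± 31.8 CPM in PyMT-Dll1mCh mice (log2 fold change 3.61, SE 0.35, adjusted p = 0.00160). Actg2 had it in Dll1+ cells, with 0.316 ± 0.194 against 15.5 ± 6.37 CPM (log2 fold change 5.68, SE 0.52, adjusted p = 0.00311). In Dll1- cells Actg2 was 12.4-fold higher (log2 fold change 3.63). Actg2 rests on 8 to 30 counts in the PyMT-Dll1GFP libraries and 442 to 1308 in the others.

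The myosin chains differed by 3.65 (Myh11) and 2.95 (Myl9) on the log2 scale in Dll1- cells and by 3.31 and 2.81 in Dll1+ cells. Cnn1 differed by 3.71 (SE 0.91, adjusted p = 0.0205) and 4.53 (SE 0.89, adjusted p = 0.0132). Tpm2 and Mylk were closest to the threshold: the log2 fold changes in Dll1- cells were 2.58 (adjusted p = 0.0332) and 1.90 (adjusted p = 0.0362).

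Oxtr and Tpm1 were the members whose libraries overlapped between the lines. Oxtr, from 8.82 to 60.9 CPM in PyMT-Dll1mCh and 12.7 to 23.7 CPM in PyMT-Dll1GFP mice, had log2 fold changes of 0.18 (SE 0.62, adjusted p = 0.846) in Dll1- and 0.83 (SE 0.61, adjusted p = 0.335) in Dll1+ cells. Its direction rests on mouse 3, without which it was -0.63 in Dll1- and -0.40 in Dll1+ cells, with 1 PyMT-Dll1mCh mouse left. Without mouse 4 it was 0.72 and 1.48, again with 1 PyMT-Dll1mCh mouse left. Tpm1 had log2 fold changes of 0.21 (SE 0.30, adjusted p = 0.620) and 0.58 (SE 0.30, adjusted p = 0.188). Without mouse 3 the log2 fold changes of Tpm1 were 0.53 and 0.86.

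The 2 libraries of a mouse are not independent. With the mouse as a random block limma voom called 5 members in Dll1- cells (Acta2, Actg2, Myh11, Myl9 and Tagln) and 7 in Dll1+ cells (all 8 but Mylk). Of all tested genes it called 33.2% and 27.6%. The calls also depend on both PyMT-Dll1GFP mice. Without mouse 1, edgeR called 0 members and 0 of 19204 genes in either comparison, with 7 and 6 members at an unadjusted p under 0.05 in Dll1- and Dll1+ cells. Without mouse 2, it called 0 members and 0 of 18708 genes, with 5 and 6 members at an unadjusted p under 0.05. Reporter construct, mouse and any difference in how the tumors were collected cannot be told apart in this design.

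**Figure D3:**
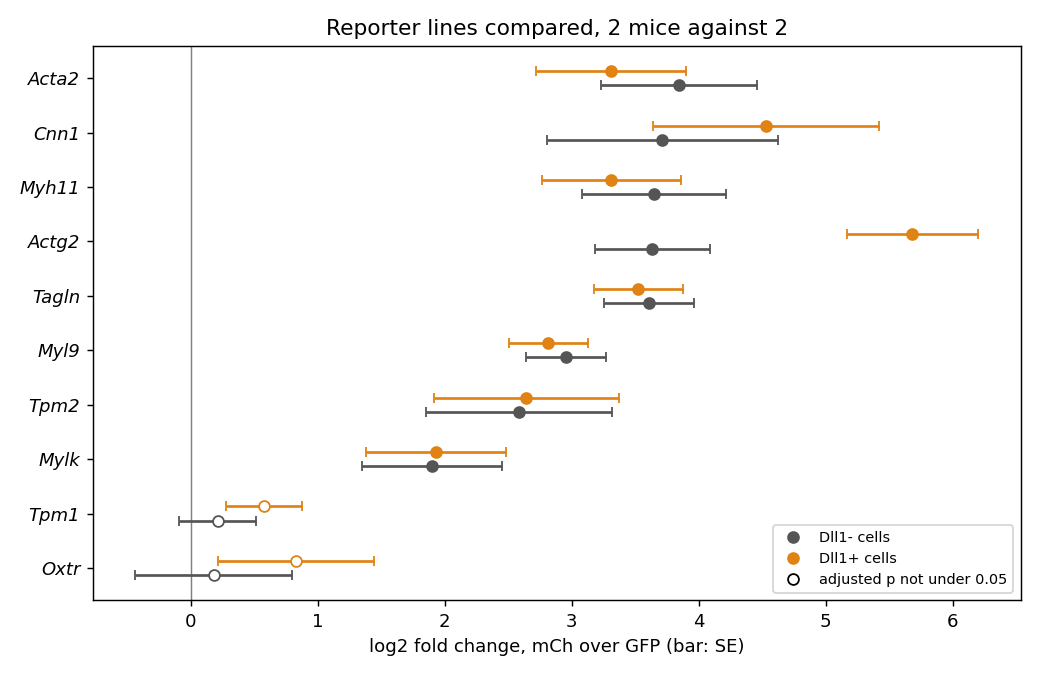
Log2 fold change of each contractile gene between the reporter lines, PyMT-Dll1mCh over PyMT-Dll1GFP, 2 mice against 2, with SE bars, in Dll1- (gray) and Dll1+ (orange) cells; open points have an adjusted p of 0.05 or more. All points lie right of 0, from 0.18 for Oxtr to 5.68 for Actg2, and the open ones are those of Oxtr and Tpm1.

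Markers of other cells that use these genes, or that the sort could hold, were read beside the members. Of 10 markers of pericytes and vascular smooth muscle, 8 were called higher in PyMT-Dll1mCh mice in Dll1- cells, and 5 higher and 1 lower in Dll1+ cells. Of all tested genes 18.7% were called higher in Dll1- cells, and 15.2% higher and 15.4% lower in Dll1+ cells. Rgs5, a regulator of G protein signaling typical of pericytes, was at 7.49 to 12.01 CPM in the 4 PyMT-Dll1GFP libraries. In PyMT-Dll1mCh mice it was at 250 and 294 CPM in Dll1- and at 34.5 and 35.6 CPM in Dll1+ cells. The summed level of the 10 markers was 235 to 285 CPM in PyMT-Dll1GFP libraries, 761 and 945 CPM in Dll1- and 301 and 267 CPM in Dll1+ cells of PyMT-Dll1mCh mice. Notch3, at 102 to 163 CPM, and Mcam, at 71.9 to 145 CPM, were high in all 8 libraries. They made up most of the sum in the PyMT-Dll1GFP libraries and in Dll1+ cells of PyMT-Dll1mCh mice. The sum therefore hides the 5 markers called higher in those Dll1+ cells. None of the 10 was at 0, and Higd1b, at 0.0693 to 0.102 CPM in the PyMT-Dll1GFP libraries, was near the floor there. Their part in the difference between the lines was not tested.

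Within the PyMT-Dll1mCh mice all 10 of these markers were lower in the Dll1+ library of both mice. Of them 8 were called lower, as were 6.25% of all tested genes. The log2 fold changes were -2.95 (SE 0.13) for Rgs5 and -2.54 (SE 0.20) for Pdgfrb, a receptor of pericytes and fibroblasts. The medians of the 10 markers were -2.07 in mouse 3 and -2.62 in mouse 4, and those of the contractile genes 1.11 and -0.25. The medians thus had opposite signs in mouse 3 and the same sign in mouse 4, where 4 of the 10 contractile genes were still higher in Dll1+ cells. In PyMT-Dll1GFP mice 0 of the 10 were called in edgeR, against 9.13% of all tested genes, with 3 at an unadjusted p under 0.05. The difference between reporters was called for Rgs5 (3.10, SE 0.19, adjusted p = 0.0233), Abcc9 and Kcnj8, and for 0.0710% of all tested genes.

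Fibroblast, endothelial and immune markers shared this pattern. The summed level of the 10 fibroblast markers was 1248 to 1461 CPM in PyMT-Dll1GFP libraries, 8412 and 24117 CPM in Dll1- and 3695 and 3835 CPM in Dll1+ cells of PyMT-Dll1mCh mice. All 10 were called higher in PyMT-Dll1mCh mice in Dll1- cells and 6 in Dll1+ cells, against 18.7% and 15.2% of all tested genes. The 10 endothelial markers summed to 63.3 to 71.9 CPM in PyMT-Dll1GFP libraries and to 147 to 583 CPM in PyMT-Dll1mCh libraries, and the 10 immune markers to 120 to 138 CPM and 348 to 786 CPM. In mice 3 and 4, 0 of the 10 markers of each of these lists were higher in Dll1+ cells. Skeletal muscle markers stayed at a summed 10.8 to 20.1 CPM, and of the 4 that could be tested edgeR called 0 in any of the 6 comparisons, with 1 at an unadjusted p under 0.05, in PyMT-Dll1mCh mice.

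Of 10 basal and myoepithelial markers outside the contractile set, 4 were called higher in Dll1+ cells over 4 mice, as were 6.98% of all tested genes. They were Krt5 (2.77, SE 0.25, adjusted p = 0.00730), Col17a1 (2.72, SE 0.22, adjusted p = 0.00630), Igfbp5 (1.17, SE 0.11, adjusted p = 0.00633) and Trp63 (1.08, SE 0.24, adjusted p = 0.0461). Krt5, the keratin of basal epithelial cells, went from 13.2 to 70.1 CPM in mouse 1, from 6.17 to 27.9 CPM in mouse 2, from 20.9 to 243 CPM in mouse 3 and from 30.8 to 219 CPM in mouse 4. Unlike Acta2, it was higher in the Dll1+ library of mouse 4 as well. In every mouse the Dll1+ library was the higher one for these 4 and Krt14, and each of the other 5 basal markers was lower in at least 1 mouse. Among the contractile genes the same held for Oxtr, Cnn1 and Tpm2, and each of the other 7 was lower in at least 1 mouse. Of 10 luminal markers, Kit was called higher and Prom1 lower. Between the reporter lines, 1 of the 10 basal markers was called higher in PyMT-Dll1mCh mice and 2 lower in Dll1- cells. In Dll1+ cells 4 were called higher and 1 lower. Of all tested genes 18.7% were called higher and 17.9% lower in Dll1- cells, and 15.2% and 15.4% in Dll1+ cells. The median log2 fold changes of the 10 basal markers were 0.96 in Dll1- and 1.69 in Dll1+ cells.

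**Figure D4:**
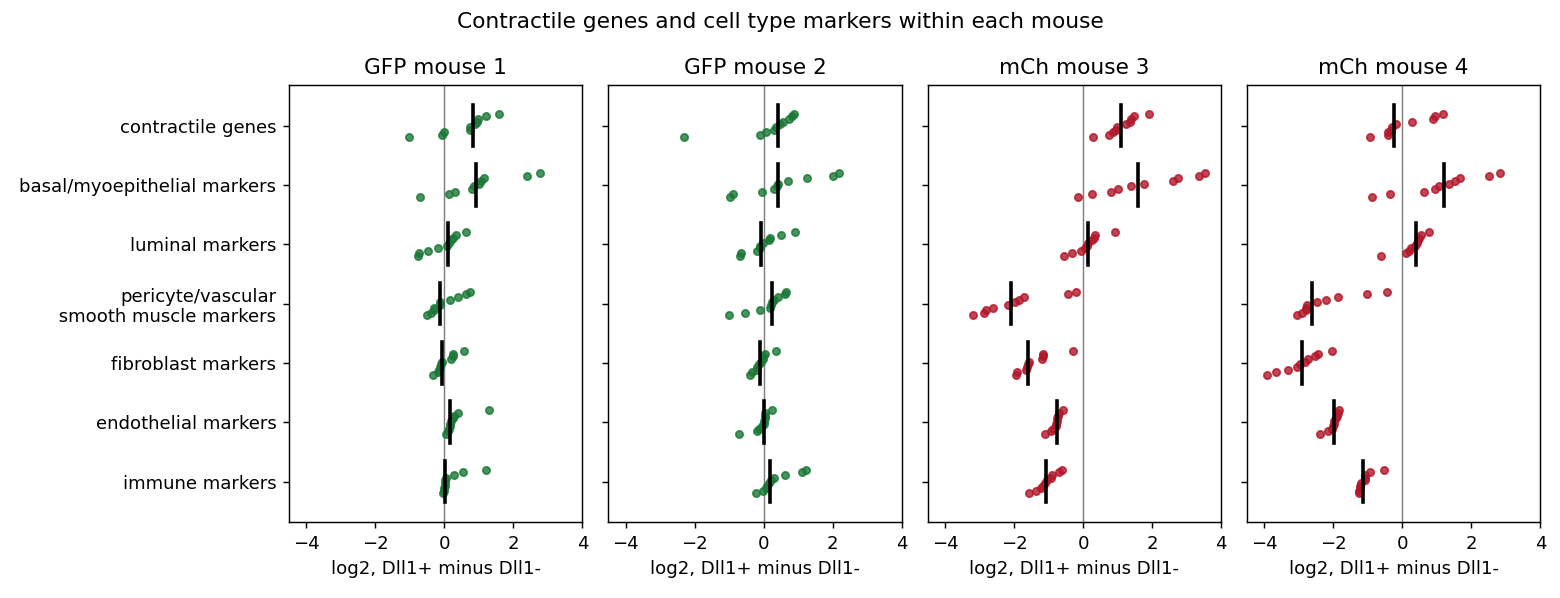
Log2 difference between Dll1+ and Dll1- cells within each mouse, Dll1+ minus Dll1-, for the contractile genes and 6 lists of cell type markers; each point is 1 gene and the black bar is the median of its list. The medians of the contractile genes are 0.82, 0.41, 1.11 and -0.25 in mice 1 to 4, and the pericyte, fibroblast, endothelial and immune markers lie left of 0 in mice 3 and 4.

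The other genes of the contractile pathway were read from a list of 36, of which 35 were tested. Over 4 mice 5 of them were called higher in Dll1+ cells and 0 lower, and their median log2 fold change was 0.05. Of all tested genes 14.0% were called, 6.98% higher and 7.04% lower. Counted in either direction, 5 of 35 is near the share of all tested genes. The PDZ-LIM protein Pdlim3 (1.24, SE 0.11, adjusted p = 0.00619) and the integrin chain Itga8 (0.70, SE 0.10, adjusted p = 0.0114) were called. So were Plcb1 (0.69, SE 0.09, adjusted p = 0.0113), a phospholipase C downstream of Gq, Gnaq (0.37, SE 0.06, adjusted p = 0.0148), which encodes the alpha subunit of Gq, and Smtn (0.32, SE 0.06, adjusted p = 0.0240), smoothelin. Plcb1 was at 12.8 and 19.5 CPM in Dll1- and Dll1+ cells of mouse 1, 12.5 and 23.7 CPM in mouse 2, 11.2 and 18.1 CPM in mouse 3, and 11.2 and 16.1 CPM in mouse 4, with no overlap between the Dll1+ and Dll1- libraries. Smtn lies outside the rule for named genes and was added after its values were seen.

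Between the reporter lines the pathway did not move as 1 block. In Dll1- cells 10 of the 35 were called higher in PyMT-Dll1mCh mice and 9 lower, with a median log2 fold change of -0.01. Of all tested genes 18.7% were called higher and 17.9% lower. In Dll1+ cells 9 were called higher and 6 lower, against 15.2% and 15.4% of all tested genes. Des, desmin, an intermediate filament of muscle cells and pericytes, was higher by 5.37 (SE 0.53) in Dll1- cells on the log2 scale, with Tgfb1i1 (3.46, SE 0.43) and Synpo2 (3.49, SE 0.46). Itpr1, the receptor through which inositol trisphosphate releases calcium, was lower, at -0.88 on the log2 scale (SE 0.09, adjusted p = 0.00150) in Dll1- and -0.72 (SE 0.09, adjusted p = 0.00408) in Dll1+ cells. Myocd, which encodes myocardin, the smooth muscle coactivator of serum response factor, did not pass the filter, with at most 0.0349 CPM in PyMT-Dll1GFP and 0.180 to 0.528 CPM in PyMT-Dll1mCh libraries.

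The nonmuscle and striated relatives of the members were read from a list of 21 genes, of which 17 were tested. Over 4 mice edgeR called 0 of them, with 3 at an unadjusted p under 0.05, and their median log2 fold change was -0.02. Between the lines 3 were called higher in PyMT-Dll1mCh mice in Dll1- cells: Avpr1a (3.47, SE 0.55), a vasopressin receptor related to Oxtr, Cnn2 (1.25, SE 0.36) and Myl12a (0.56, SE 0.15). In Dll1+ cells Cnn2 (1.82, SE 0.37), Myl12a (0.77, SE 0.15) and Myl6 (0.48, SE 0.11) were called higher. With 3 of 17 each time, the relatives were near the 18.7% and 15.2% of all tested genes called higher. The nonmuscle actins were not called in either comparison of the lines, with Actb at 2547 to 3403 CPM and Actg1 at 4835 to 6777 CPM over the 8 libraries.

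Across the 8 libraries the members went together to different degrees. As a description over 8 libraries that share mice and sort, Pearson's r of log2 CPM was 0.998 between Acta2 and Myh11 and 0.996 between Myl9 and Tagln. It was 0.42 between Acta2 and Oxtr, 0.08 between Oxtr and Tpm2, and -0.32 between Oxtr and Tpm1. The genes outside the set most like Acta2 were Matn2 (r = 0.989), Ephb1 (0.988), Bace2 (0.986), Tspo (0.982) and Krt71 (0.982). Those most like Oxtr were Pdrg1 (r = 0.968), Slc6a2 (0.965), 1600014C10Rik (0.964), Mug1 (0.961) and Gm17251 (0.958). Mug1 was near the floor, at 0 CPM in Dll1- cells of mouse 4 and at 0.102 and 0.139 CPM in those of mice 1 and 2. These are the highest r of all tested genes outside the set, so high values come in part from the selection. Acta2, Myh11 and Matn2 were higher in all PyMT-Dll1mCh than in all PyMT-Dll1GFP libraries, and their r includes that difference.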

How the data were processed

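RNA of sorted tumor cells was sequenced by the authors, in a stranded kit. Reads were mapped with salmon to GENCODE M20 transcripts (GRCm38.p6) and summed to genes with tximport, and the estimated counts were deposited as whole numbers without normalization for 53697 genes. Coordinates and exon lengths came from GENCODE M21 (GRCm38), matched on identifiers without version for 53668 genes, and promoter sequences from RefSeq.

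Tests were made in R 4.3.3 with edgeR 4.0.16, using TMM scaling, filterByExpr on Dll1 status, a robust quasi-likelihood F test and Benjamini-Hochberg adjustment over 18322 genes. Dll1+ and Dll1- cells were compared with the mouse as a block, over 4 mice or with 1 effect per reporter, and the reporter lines in a model of 4 group means. The mouse named in the labels pairs the libraries, and the deviations of paired libraries from their group means correlated at -0.05 in PyMT-Dll1GFP and 0.55 in PyMT-Dll1mCh mice. SDs are over the 2 mice of a group. Levels per library are TMM-scaled CPM, and log2 values used a prior count of 2.

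Members and gene lists were chosen with earlier results of these data known. All members were named, with the 5 genes most correlated with Acta2 and with Oxtr and up to 4 genes of lowest p per other list. Alternatives were RLE and library-total size factors, DESeq2 1.42.0, other filters, no mouse block, limma voom 3.58.1, single reporters and each mouse left out. The scripts were tested on simulated counts.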

Additional observations from a re-analysis of the deposited data

How the results depend on the processing

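When single mice were left out, the number of the 10 members called ranged from 1 to 5 for Dll1+ against Dll1- over 4 mice, 0 to 4 in PyMT-Dll1GFP mice, 2 to 5 in PyMT-Dll1mCh mice, 0 to 1 for the difference between reporters (Mylk, without mouse 3), 0 to 10 between the lines in Dll1- and 0 to 9 in Dll1+ cells. Where a line was left with 1 mouse, that mouse was assumed to vary like the others. The share of all tested genes called changed as well. Over 4 mice it was 2.25% without mouse 1 and 2.28% without mouse 3, with 1 member called each time. It was 4.16% without mouse 2 (3 members) and 13.1% without mouse 4 (5 members). Among these fits the member counts rose with the calls of all genes. The fit with no mouse left out broke that order, with 14.0% of all tested genes and 3 members called. The other ranges include fits with 1 mouse in a line and do not show how stable the members are by themselves. In PyMT-Dll1GFP mice DESeq2 called 3 members (Actg2 lower, Oxtr, Tpm2) and 11.2% of all tested genes. No filter on low counts gave 4 members (Cnn1 in addition) and 8.62%, and the line fitted alone 2 (Oxtr, Tpm2) and 13.1%. PyMT-Dll1mCh mice fitted alone gave 0 members and 0 of 19945 genes in edgeR, with 4 members at an unadjusted p under 0.05. Without a filter on low counts 5 members were called between the lines in Dll1- and 4 in Dll1+ cells, where 19.9% and 16.6% of all tested genes were called.

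The mouse is the replicate block of the main fits. With no replicate block, edgeR called 0 members over 4 mice, 0 in PyMT-Dll1GFP and 0 in PyMT-Dll1mCh mice, with 1, 1 and 0 at an unadjusted p under 0.05, and 0, 274 and 212 genes in all. Log2 fold changes then turned to 0.23 for Actg2 over 4 mice, 0.16 for Mylk in PyMT-Dll1mCh mice and -0.032 for Mylk in the difference between reporters. With the reporter kept as a term in place of the block, an alternative chosen after seeing the data, 0 members and 1352 genes (7.38%) were called over 4 mice, with 4 members at an unadjusted p under 0.05. With the mouse as a random replicate block in limma voom, 5 members were called between the lines in Dll1- and 7 in Dll1+ cells. The shares of all tested genes called were 33.2% and 27.6%.

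Library totals as size factors, also chosen after seeing the data, turned Mylk over 4 mice to -0.018 and split all calls over 4 mice into 974 higher and 1765 lower, against 1279 and 1289 with TMM. The split was 696 and 1361 against 786 and 887 in PyMT-Dll1GFP mice, 854 and 1389 against 1009 and 1145 in PyMT-Dll1mCh mice, 2844 and 3827 against 3422 and 3279 between the lines in Dll1- and 2278 and 3246 against 2786 and 2826 in Dll1+ cells. The members called stayed Cnn1, Oxtr and Tpm2 over 4 mice and in PyMT-Dll1mCh mice.

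Some log2 fold changes turned sign with a mouse left out. Over 4 mice Actg2 ranged from -1.16 to 0.016 and Mylk from -0.21 to 0.37. In PyMT-Dll1GFP mice Mylk ranged from -0.017 to 0.35. In PyMT-Dll1mCh mice the ranges were -0.33 to 1.35 for Acta2, -0.44 to 0.93 for Actg2, -0.43 to 1.32 for Myh11, -0.21 to 0.84 for Myl9, -0.36 to 0.96 for Tagln and -0.96 to 0.71 for Mylk. In the difference between reporters they were -0.31 to 0.75 for Myl9, -0.55 to 0.77 for Tagln, -0.28 to 0.065 for Tpm2, -0.17 to 1.52 for Acta2, -0.40 to 1.35 for Myh11 and -0.54 to 1.13 for Mylk. Between the lines they were -0.63 to 0.72 for Oxtr and -0.17 to 0.53 for Tpm1 in Dll1- and -0.40 to 1.48 for Oxtr in Dll1+ cells. The cause of these shifts was not tested. Of 644 alternative values for single members, 25 turned sign, 68 lost and 22 gained a call. Actg2 and Cnn1 in PyMT-Dll1GFP mice rest on the fewest counts.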
